A study of Mus musculus with 17 samples.

Results

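The contacts of 2 globin enhancers, R2 of the alpha-globin locus and HS2 of the beta-globin locus, were compared in mouse embryonic stem (ES) cells, in which neither locus is active. The method was Tri-C, which cuts cross-linked chromatin with the restriction enzyme NlaIII, ligates it, and enriches reads that join a chosen fragment, the viewpoint, to other fragments on the same allele. All 7 ES libraries of the 17 in the series were used. They are technical replicates of 3 biological replicates, all labelled as the E14 line (strain 129/Ola), and were summed by replicate. The 10 remaining libraries come from spleen Ter-119+ cells of phenylhydrazine-treated female C57BL/6 mice, an erythroid population in which both loci are active, and also form 3 biological replicates. They enter only to pick well-covered fragments for a check of the ES replicates and where ES values are set beside erythroid ones. The labels leave unsaid whether each biological replicate was a culture or animal of its own, and every p-value below then speaks only of the spread among these samples. In comparisons of ES with erythroid cells, the strain and the source (a cell line, or the spleen of phenylhydrazine-treated female mice) change with the cell type. These cannot be told apart.

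R2 is one of the enhancers of a cluster (R1, R2, R3, Rm and R4) that lies upstream of the alpha-globin genes, partly inside the introns of the widely expressed gene Nprl3. HS2 is one of the hypersensitive sites of the locus control region, the group of enhancers upstream of the beta-globin genes. Both enhancers act on their globin genes in red cell precursors, where they form loops with the promoters. In chromosome conformation data the contacts of any fragment become rarer with distance along the chromosome, and the steepness of that decay, its evenness on both sides, and the joint position of 2 partners of one viewpoint describe the fold around it.

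In mm9 coordinates, R2 was read as the stretch chromosome 11, 32149923 to 32152111, and HS2 as chromosome 7, 111008334 to 111011358, the longest stretches without a listed fragment at each site. Distances run from the centre of each stretch to the midpoint of a fragment. The gene side is the side of the globin genes, toward higher coordinates from R2 and toward lower coordinates from HS2. The 16815 fragments listed within 2 Mb of R2 cover 94.3% of those 4 Mb, and the 16068 around HS2 cover 94.9%. By background knowledge, the adult globin genes of both loci fall in the band of 20 to 50 kb on the gene side. The series' CTCF viewpoint of the alpha locus (CTCF is the insulator protein that bounds many chromatin loops) lies 13.5 kb from R2 on the other side, and that of the beta locus 54.4 kb from HS2 on the gene side. The neighbourhoods differ. In the gene order of GRCm38.p6, 0 of the 40 protein-coding genes next to the alpha-globin genes on either side carry olfactory receptor names, against 38 of 40 beyond the beta-globin genes on the gene side of HS2 and 25 of 40 on its other side.

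Each entry of the tables is a pair of fragments found with the viewpoint, with its count per library. From R2 there were 431427, 139337 and 213319 counts in ES replicates 1, 2 and 3, against 272616, 84849 and 129113 from HS2. The libraries did not all agree. In replicate 2, 75.6% of pairs from R2 and 74.2% from HS2 had both fragments less than 10 kb apart, against 53.7% to 54.9% from R2 and 52.7% to 55.1% from HS2 in the other replicates. Around HS2, replicate 1 stood apart. Of 463 fragments within 150 kb of R2 that had at least 200 counts in erythroid cells, 0 were empty in any ES replicate. Of 372 such fragments around HS2, 0 were empty in ES replicate 1, 23 in replicate 2 and 29 in replicate 3. At HS2, 16 fragments had at most 1 count in each of replicates 2 and 3 and between 13 and 390 counts in replicate 1; 10 of them lie on the gene side and 6 on the other. In the reverse direction, of 398 HS2 fragments with at least 50 counts in ES replicates 2 and 3 together, 4 had at most 1 count in replicate 1, and 5 had at most 1 in erythroid cells. At R2 these were 0 and 4 of 1044 fragments. The labels give the same line and strain to all ES libraries. The source of this difference was not tested, nor was whether replicate 1 comes from the same stock of cells. Values by replicate are therefore given for most of the distance bands described, and values without replicate 1 for those bands and the main measures.

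Contacts of R2 stayed on its chromosome, and close to R2, more often than those of HS2. Neither fragment of a pair lay on chromosome 11 in 23.4%, 12.9% and 18.7% of pairs from R2, whereas neither lay on chromosome 7 in 34.0%, 26.8% and 37.2% of pairs from HS2. Both fragments lay within 2 Mb in 44.8%, 61.5% and 47.5% of pairs from R2, against 32.8%, 41.2% and 26.6% from HS2. R2 was the higher in each of the 3 replicates, with no overlap between the viewpoints. Without replicate 1 the paired difference was -16.2 points for pairs off the chromosome and 20.6 points for pairs within 2 Mb. Both lay within 150 kb in 29.6%, 45.1% and 29.8% of pairs from R2, against 15.02%, 16.8% and 7.53% from HS2, a difference of 21.7 ± 6.86 points and of 25.3 points without replicate 1. Taken over pairs within 2 Mb alone, which sets the off-chromosome pairs aside, the share within 150 kb was 67.4% ± 5.46 from R2 and 38.3% ± 9.01 from HS2 (SD, n = 3), a paired difference of 29.1 ± 7.59 percentage points, and of 33.4 points without replicate 1. An exact two-sided sign-flip test over 3 pairs can give no p below 0.25. That smallest value, 0.25, was reached by 7 of 8 measures compared in this way (0.286 after Benjamini-Hochberg adjustment over the 8), so that for single values only the direction in every replicate can be read.

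The decay with distance was steeper from R2. From 10 kb to 2 Mb, the slope of log contact frequency on log distance was -1.22, -1.26 and -1.16 from R2, against -0.92, -0.78 and -0.69 from HS2. All 3 slopes from R2 were steeper than all 3 from HS2, with a paired difference of -0.42 ± 0.10 (SD, n = 3). HS2 replicate 1 had the steepest slope of the 3 from HS2; without that replicate the difference of R2 minus HS2 was -0.47. The slopes were as far apart on either side: on the gene side they averaged -1.15 ± 0.06 from R2 and -0.77 ± 0.13 from HS2, and on the other side -1.25 ± 0.05 from R2 and -0.84 ± 0.10 from HS2. The median distance of a contact within 2 Mb was 38.4, 27.2 and 38.5 kb from R2, against 111, 191 and 297 kb from HS2, with a paired difference of -165 ± 92.9 kb, and of -211 kb without replicate 1.

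**Figure D1:**
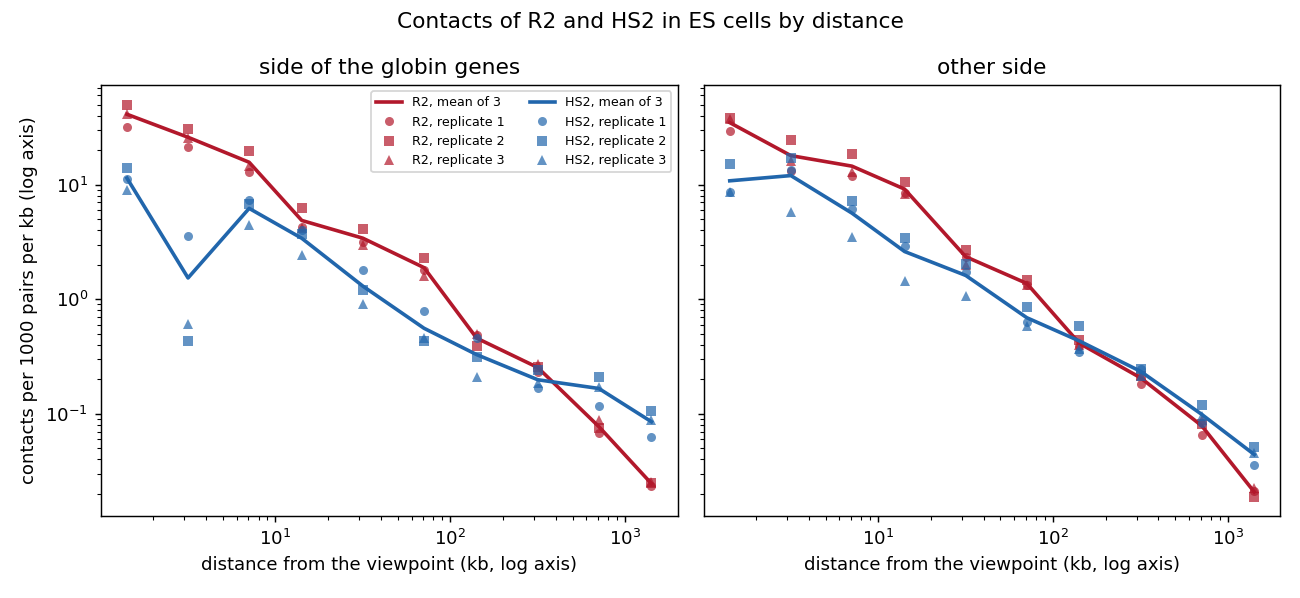
Contacts per 1000 contact pairs per kb (log axis) by distance from the viewpoint in kb (log axis), on the side of the globin genes (left) and on the other side (right), for R2 (red) and HS2 (blue); lines are means of 3 ES replicates and symbols the replicates. R2 lies above HS2 out to about 100 kb and below it beyond 500 kb, and the single dip of HS2 is its gene-side band from 2 to 5 kb.

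Contacts were then counted in 20 bands, 10 on each side, with bounds at 1, 2, 5, 10, 20, 50, 100, 200, 500, 1000 and 2000 kb, each pair adding 1 for each of its fragments, and are given per 1000 pairs of the whole table. Within 100 kb, contacts of R2 summed to 442 ± 85.3 on the gene side and 391 ± 62.5 on the other side, against 148 ± 42.2 and 184 ± 61.4 for HS2 (SD, n = 3). By replicate HS2 had 192, 144 and 108 on the gene side and 192, 241 and 119 on the other. From 500 kb to 2 Mb the order turned: 63.3 ± 5.90 on the gene side and 60.2 ± 6.46 on the other side for R2, against 169 ± 44.2 and 93.7 ± 16.4 for HS2, whose replicates held 122, 210 and 174 on the gene side and 77.5, 110.2 and 93.3 on the other. In the paired edgeR quasi-likelihood test with Benjamini-Hochberg adjustment, 12 of the 20 bands (60% of those tested) had an adjusted p under 0.05. Of these, 9 (45%) were higher from R2, all within 100 kb, and 3 (15%) were higher from HS2, all beyond 500 kb. All 12 were also called, in the same direction, without replicate 1. The balance of the calls moved with what the counts are divided by: relative to contacts within 2 Mb the median log2 difference over bands was 0.06, against 0.62 relative to the whole table, with 8 bands higher and 5 lower. Of the 12 calls, 11 held in the same direction on that scale and with DESeq2, and 9 with TMM factors.

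The band of the adult globin genes was among those higher from R2, although these genes are silent in ES cells. From 20 to 50 kb on the gene side, R2 had 93.9, 123 and 89.6 contacts per 1000 pairs, against 53.6, 36.1 and 27.4 for HS2. The viewpoints did not overlap, and the lowest difference was in replicate 1. The log2 difference was 1.43 (SE 0.26, edgeR adjusted p = 7.4e-06), and 1.74 without replicate 1. It was 0.86 relative to contacts within 2 Mb (adjusted p = 0.00011) and 0.61 with TMM factors, where the call was lost (adjusted p = 0.073). R2 had 158 listed fragments in this band and HS2 114, and per fragment the log2 difference was 0.96 (SE 0.26). The next band, 50 to 100 kb, held 89.1, 115 and 79.0 contacts from R2 and 39.2, 21.7 and 22.8 from HS2, again with no overlap and with HS2 replicate 1 the highest of its group (log2 1.79, SE 0.30, edgeR adjusted p = 2.2e-06). Without replicate 1 the log2 difference was 2.10.

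On the other side, the band from 10 to 20 kb, which holds the CTCF viewpoint of the alpha locus, had the largest total of the 10 other-side bands of R2, which differ in width. It held 85.1, 106 and 83.4 contacts per 1000 pairs from R2, against 29.4, 34.5 and 14.3 from HS2. Every R2 replicate was above every HS2 replicate, with HS2 replicate 3 the lowest (log2 1.89, SE 0.31, edgeR adjusted p = 2.2e-06; 2.08 without replicate 1). R2 has 72 listed fragments in this band and HS2 52, and per fragment the means were 1.27 from R2 and 0.50 from HS2. Per fragment, the band was no peak of R2: its other-side means fell from 6.95 (1 to 2 kb) and 3.15 (5 to 10 kb) to 0.56 (20 to 50 kb). From 50 to 100 kb the difference was smaller, with 66.6, 73.1 and 66.4 contacts from R2 and 31.5, 42.8 and 29.2 from HS2 (log2 1.01, SE 0.33, edgeR adjusted p = 0.0064; 0.98 without replicate 1). That call was lost without replicate 3 (adjusted p = 0.070). It was also lost relative to contacts within 2 Mb (log2 0.44), with TMM factors (0.20) and by DESeq2 (0.18), and it held per fragment (log2 0.90, edgeR adjusted p = 0.013).

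Close to the viewpoint, the largest difference of all bands was on the gene side from 2 to 5 kb. R2 had 63.4, 92.3 and 77.3 contacts per 1000 pairs there and HS2 10.7, 1.31 and 1.81. HS2 replicate 1 was higher than the other HS2 replicates, and all 3 were far below R2 (log2 4.77, SE 0.47, edgeR adjusted p = 2.2e-11; 5.77 without replicate 1). The band holds 15 listed fragments from R2 but only 6 from HS2, and 1 of these 6 is among the fragments empty in ES replicates 2 and 3, with 390 counts in replicate 1. Left without the fragments of that kind, the log2 difference was 4.84, and per fragment it was 3.45. HS2 was low in this band in erythroid cells as well, with 6.50, 4.92 and 8.09 contacts per 1000 pairs. From 1 to 2 kb and from 5 to 10 kb, on both sides, R2 was higher by log2 values between 1.35 and 1.85, and between 1.62 and 2.02 without replicate 1. With TMM factors the log2 value of the gene-side band from 5 to 10 kb was 0.53 and its call was lost (edgeR adjusted p = 0.064).

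Far from the viewpoint, HS2 was the richer, most of all on the gene side. From 1000 to 2000 kb, R2 had 23.4, 25.1 and 25.4 contacts per 1000 pairs on the gene side and HS2 63.1, 105 and 87.7. The R2 replicates lay close together and all below HS2, whose replicate 1 was its lowest (log2 -1.76, SE 0.32, edgeR adjusted p = 6.6e-06; -1.93 without replicate 1). From 500 to 1000 kb on that side, R2 had 34.2, 37.9 and 44.0 and HS2 58.8, 105 and 86.0 (log2 -1.07, SE 0.29, edgeR adjusted p = 0.0014; -1.22 without replicate 1). This call was lost without replicate 2 (log2 -0.87, adjusted p = 0.075). On the other side, 1000 to 2000 kb held 21.1, 18.9 and 22.4 contacts from R2 and 35.6, 51.0 and 45.9 from HS2 (log2 -1.07, SE 0.35, edgeR adjusted p = 0.0065; -1.23 without replicate 1), a call lost without replicate 2 or without replicate 3. Between 100 and 500 kb, none of the 4 bands passed the test in either direction, and their log2 differences lay between -0.19 and 0.54. Other settings made calls there in both directions. Counting each fragment pair once per library called the gene-side bands from 100 to 200 kb and from 200 to 500 kb higher from R2 (edgeR adjusted p = 0.019 and 9.4e-05). Other scalings made calls on the other side, lower from R2. From 200 to 500 kb on the other side the log2 value was -0.76 relative to contacts within 2 Mb (edgeR adjusted p = 0.0002), -1.01 with TMM factors and -1.03 by DESeq2. From 100 to 200 kb on that side it was -0.85 with TMM factors and -0.87 by DESeq2. The other-side band from 500 to 1000 kb was called lower under the same 3 scalings (log2 -0.90, -1.14 and -1.16).

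**Figure D2:**
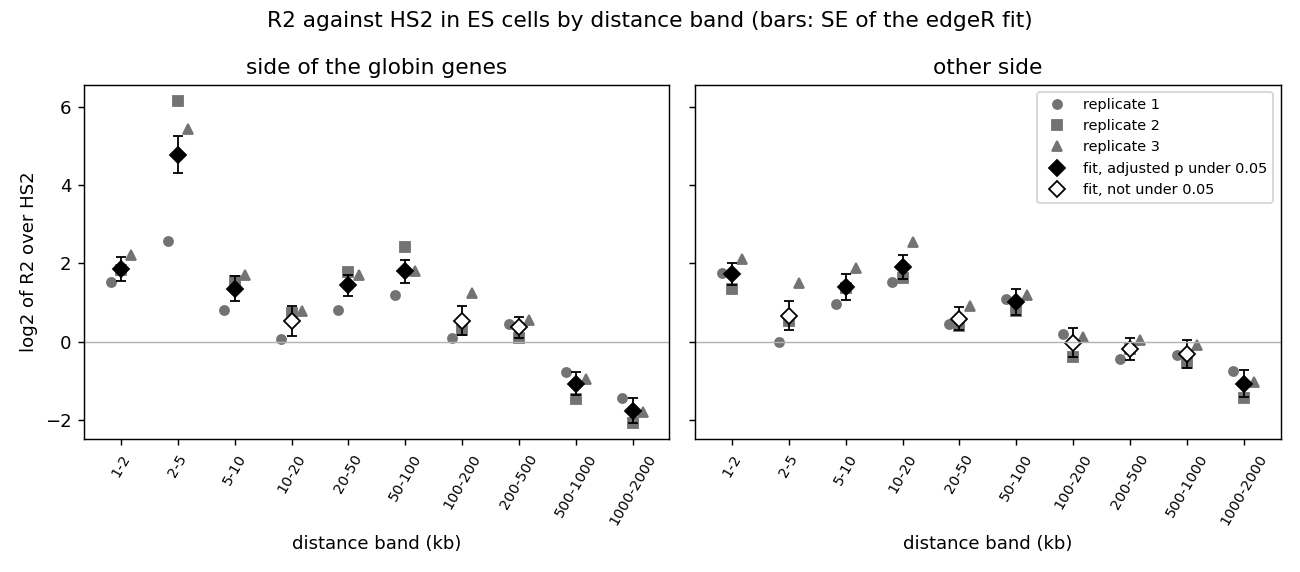
Log2 of contacts per 1000 pairs from R2 over HS2 in each distance band (kb), on the gene side (left) and the other side (right); grey symbols are the 3 replicates, diamonds the edgeR fit with its SE, filled where the adjusted p is under 0.05. The 9 filled diamonds within 100 kb lie above 0, up to 4.77, and the 3 beyond 500 kb lie below it, down to -1.76.

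At 10 kb resolution, 129 of 399 bins tested within 2 Mb (32.3%) had an adjusted p under 0.05, 36 higher from R2 (9.02%) and 93 higher from HS2 (23.3%). Of the 20 bins within 100 kb, 13 were higher from R2 and 0 from HS2. From 100 to 500 kb, 9 of 40 gene-side bins were higher from R2 and 1 from HS2, and on the other side 7 of 40 were higher from R2 and 6 from HS2. On the gene side from 500 kb to 2 Mb, 5 of 149 bins were higher from R2 and 61 from HS2, and on the other side 2 of 150 were higher from R2 and 25 from HS2. On the gene side the profile of HS2 is flat over a long stretch, described here with a bound at 1.4 Mb that was chosen after its values were seen. The median 10 kb bin of R2 held 2.44 ± 0.23 contacts per 1000 pairs from 200 to 500 kb, 0.66 ± 0.06 from 500 to 1000 kb and 0.24 ± 0.02 from 1000 to 1400 kb (SD, n = 3). The median bin of HS2 held 1.93 ± 0.28, 1.50 ± 0.46 and 1.57 ± 0.37 in the same ranges. Its replicates had 1.03, 1.95 and 1.53 from 500 to 1000 kb and 1.18, 1.92 and 1.61 from 1000 to 1400 kb, lowest in replicate 1 and all above R2. From 1400 to 2000 kb the medians were near each other, 0.18 ± 0.03 for R2 and 0.22 ± 0.04 for HS2. On the other side from 1000 to 1400 kb they were 0.23 ± 0.01 for R2 and 0.47 ± 0.03 for HS2. The number of calls moved with the samples and the scaling, as given below under the processing, and TMM factors turned the balance to 55 higher and 46 lower.

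The 5 bins with the largest differences in favour of HS2 on the gene side all lay between 910 and 1310 kb. In the bin from 1300 to 1310 kb (chromosome 11, 33451017 to 33461016), R2 had 0.21, 0.03 and 0.25 contacts per 1000 pairs. HS2 had 1.74, 3.01 and 3.94 at the same distance (chromosome 7, 109699847 to 109709846), a log2 difference of -4.30 (SE 0.57, edgeR adjusted p = 2.1e-11). Each HS2 replicate was above each R2 replicate in all 5 of these bins, whose log2 differences ran from -4.30 to -3.52. The 5 named bins in favour of HS2 on the other side lay between 910 and 1840 kb, with log2 differences from -3.93 to -3.27. They were less stable: the bins at 1830, 1230 and 1680 kb lost their calls in 5, 6 and 6 of their alternatives.

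In favour of R2, 2 of the 5 named gene-side bins adjoin each other at 50 to 70 kb. From 50 to 60 kb (chromosome 11, 32201017 to 32211016), R2 had 34.1, 57.6 and 31.4 contacts per 1000 pairs, against 6.69, 4.63 and 3.87 for HS2 (chromosome 7, 110949847 to 110959846). No replicates overlapped (log2 3.00, SE 0.39, edgeR adjusted p = 9.2e-12), although the CTCF viewpoint of the beta locus lies inside the HS2 bin. The bin lists 86 fragments from R2 and 33 from HS2, and the means per fragment were 0.48 and 0.15. The other 3 gene-side bins, at 570, 750 and 1020 kb, are places where the HS2 profile has few listed fragments: R2 lists 44, 47 and 40 there, and HS2 13, 7 and 2. HS2 had 30, 6 and 0 counts in these bins, so that each passed the filter of 50 counts through R2. From 1020 to 1030 kb R2 had 176 counts and HS2 0, at least 36.4-fold higher when HS2 is put at 3 counts over the group. With 2 listed fragments on the HS2 side, that fold does not measure how much stronger the contact of R2 is. This bin lost its call in 3 of 13 alternatives, without replicate 1, with the first technical replicate alone and per fragment. On the other side the named bins were 10 to 20, 60 to 70, 390 to 400, 670 to 680 and 1480 to 1490 kb, with log2 differences of 1.89, 2.16, 3.12, 4.55 and 2.94. The bins at 670 and 1480 kb lost their calls in 6 and 9 of 13 alternatives.

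**Figure D3:**
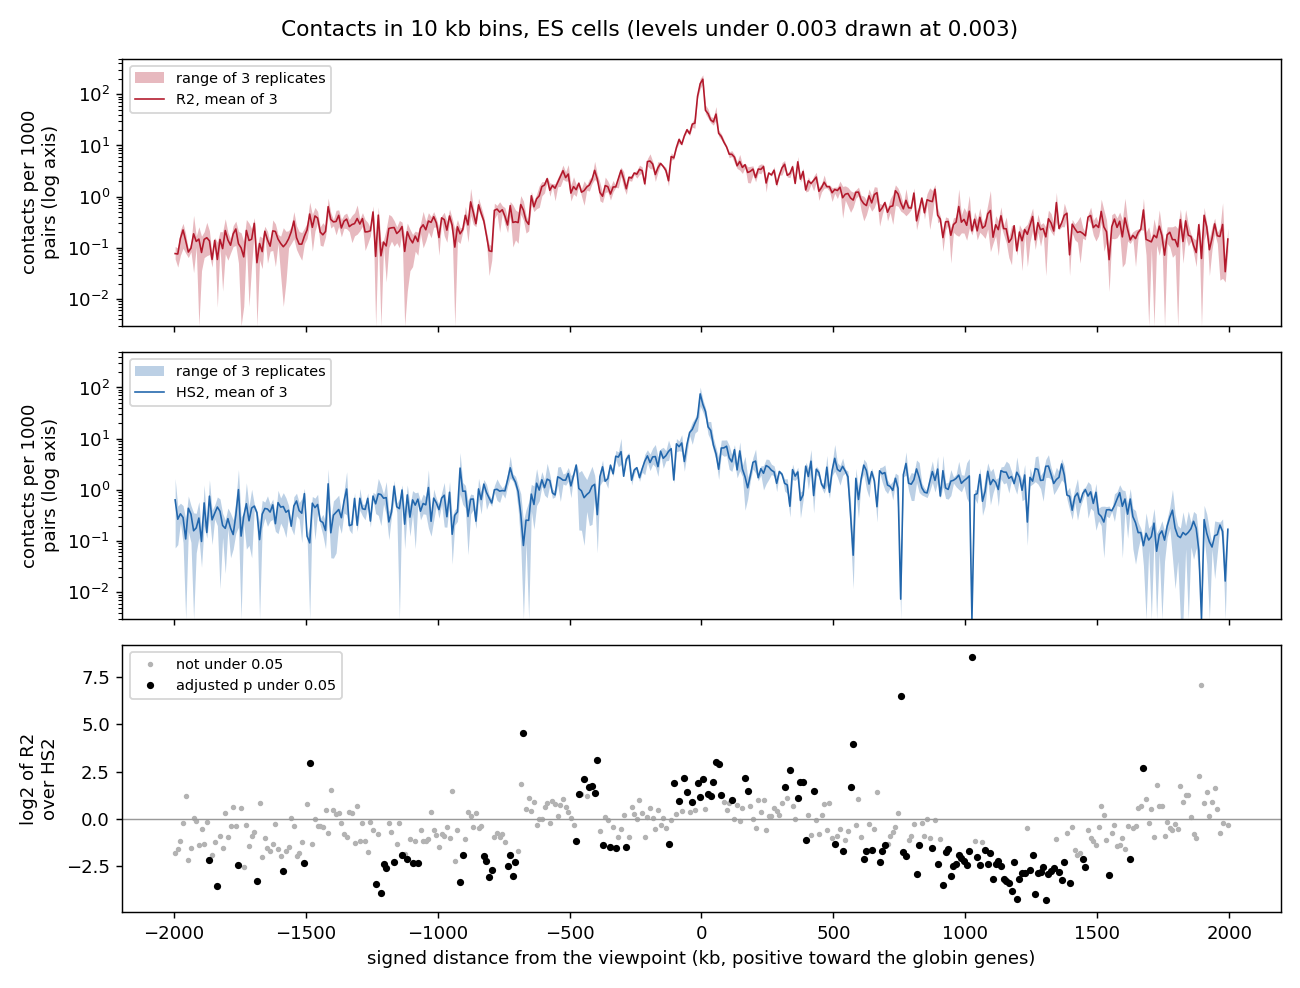
Contacts per 1000 pairs (log axis) in 10 kb bins by signed distance from R2 (top) and HS2 (middle) in kb, positive toward the globin genes, with the mean (line) and range (shading) of 3 ES replicates; the bottom panel is the log2 of R2 over HS2, black where the adjusted p is under 0.05. Of the 36 called bins above 0, 13 lie within 100 kb; on the gene side from 500 kb to 2 Mb, 61 called bins lie below 0 and 5 above it, such as those at 750 and 1020 kb.

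The share of all contacts that fell on the gene side did not separate the enhancers. It was 52.9%, 53.2% and 53.1% from R2, against 52.05%, 48.7% and 53.4% from HS2. The R2 replicates lay close together, and R2 was higher than HS2 in 2 of 3 replicates and lower in replicate 3 (paired difference 1.70 ± 2.52 points, n = 3, exact sign-flip p = 0.5; 2.12 points without replicate 1). Erythroid cells had a gene-side share of 62.5%, 64.1% and 61.4% from R2, against 57.9%, 55.8% and 54.2% from HS2, and R2 was higher in each. Within 150 kb in ES cells, R2 had 52.9%, 53.9% and 53.0% of contacts on the gene side, against 51.6%, 37.9% and 46.7% from HS2. R2 was higher in each replicate, by 1.25, 15.9 and 6.29 points (11.1 on average without replicate 1). With fragments within 5 kb left out the shares were 51.4%, 53.4% and 51.0% from R2, against 55.9%, 42.2% and 49.6% from HS2, and R2 was then lower in replicate 1. From 200 kb to 2 Mb, R2 had 53.8%, 53.0% and 53.2%, against 53.2%, 60.6% and 59.3% from HS2, where R2 was higher by 0.55 points in replicate 1 and lower in the other replicates. The mean difference of -4.39 points was -6.86 without replicate 1.

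Band by band, the ratio of gene side to other side was tested in a fit that holds both sides. It differed between R2 and HS2 in 6 of 10 bands (60%), 3 in each direction (30% each). R2 leaned further to the gene side than HS2 from 2 to 5 kb (59.6% ± 3.32 of contacts, against 11.04% ± 9.40), from 20 to 50 kb (59.1% ± 1.80 against 44.7% ± 7.07) and from 200 to 500 kb (55.2% ± 0.65 against 45.6% ± 4.66; SD, n = 3 each). HS2 leaned further to the gene side from 10 to 20 kb, with 34.5% ± 2.20 for R2 and 57.6% ± 5.50 for HS2, from 500 to 1000 kb, with 49.6% ± 1.43 and 62.2% ± 3.34, and from 1000 to 2000 kb, with 54.2% ± 2.40 and 65.6% ± 1.69. The edgeR adjusted p of these 6 bands lay between 0.0057 and 0.0201. None of the 6 calls held without replicate 3 (2 of 10 bands then had an unadjusted p under 0.05), and 1 held without the replicate block, that of 2 to 5 kb; DESeq2 called 5 of the 6.

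The number of fragments listed on each side differed too, and its part in these leanings was not tested. From 10 to 20 kb R2 has 38 listed fragments on the gene side and 72 on the other, which puts 34.5% on the gene side, beside 34.5% of its contacts. HS2 has 52 on each side there, beside 57.6% of contacts on the gene side. From 2 to 5 kb HS2 has 6 on the gene side and 18 on the other, beside 11.04% of contacts. From 500 to 1000 and from 1000 to 2000 kb the listed fragments were near even at both viewpoints, with 50.7% and 53.4% on the gene side from R2 and 51.9% and 50.7% from HS2. By replicate, HS2 had 58.4%, 63.9% and 64.4% of contacts on the gene side from 500 to 1000 kb and 63.9%, 67.3% and 65.7% from 1000 to 2000 kb. Every value was above those of R2, which were 51.0%, 48.1% and 49.7%, and 52.6%, 57.0% and 53.1%. Without replicate 1 the call from 500 to 1000 kb held and that from 1000 to 2000 kb was lost.

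**Figure D4:**
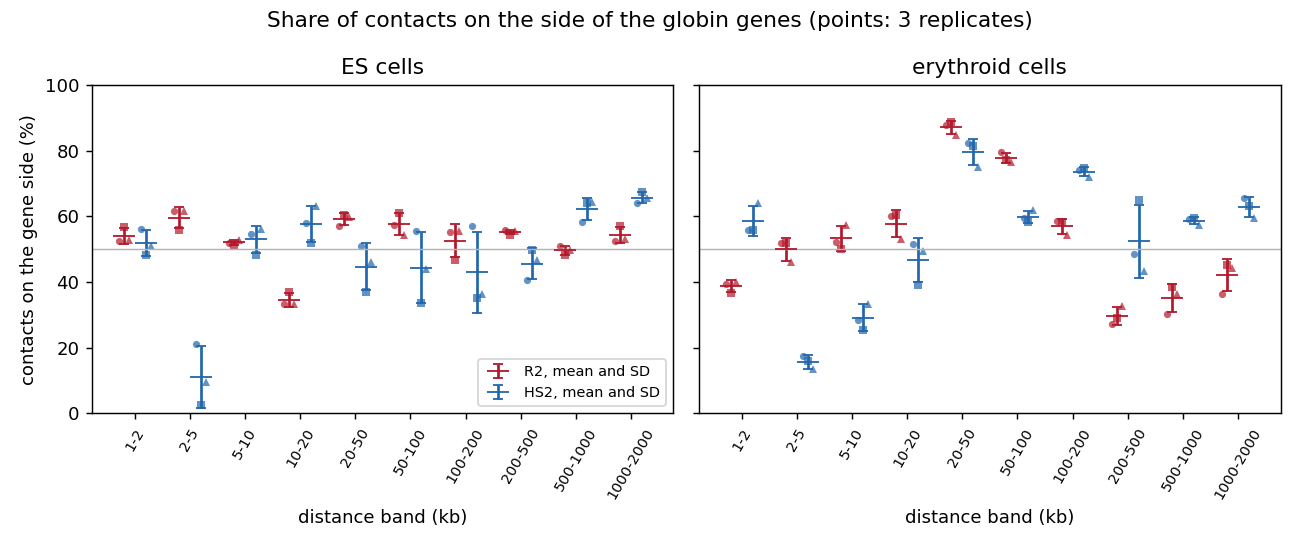
Percent of contacts on the side of the globin genes in each distance band (kb) in ES cells (left) and erythroid cells (right), for R2 (red) and HS2 (blue); points are 3 replicates, with mean and SD. In ES cells R2 stays between 34.5% and 59.6% on average, while HS2 falls to 11.04% from 2 to 5 kb and lies above 60% beyond 500 kb; in erythroid cells both viewpoints peak at 20 to 50 kb.

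Because Tri-C reports pairs, the 2 partners of a viewpoint can be placed on the same side of it or on opposite sides. Both lay on the same side in 79.5%, 88.4% and 78.6% of pairs within 2 Mb from R2, against 83.3%, 91.2% and 85.0% from HS2. R2 was lower in each of the 3 replicates, with a difference of -4.36 ± 1.87 points (-4.60 without replicate 1), but the ranges of both viewpoints overlap, since replicate 2 is the highest at both (exact sign-flip p = 0.25, the smallest possible). Many of these pairs are neighbours on the chromosome. With fragments at least 10 kb apart, the share was 57.4%, 57.5% and 57.5% from R2, against 63.6%, 66.4% and 68.7% from HS2. On this measure the viewpoints did not overlap, and the difference was -8.76 ± 2.56 points, or -10.1 points without replicate 1.

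The share moved with the distances of the partners. When both fragments were in the same of 4 distance bands (1 to 10, 10 to 50, 50 to 200 and 200 to 2000 kb), between 86.3% and 98.7% of pairs were on one side in every replicate of either viewpoint. When they were in different bands, the shares lay between 44.3% and 67.0%. Pairs in the same band include close neighbours, and their shares were lower with fragments at least 10 kb apart. Mean shares were then 66.0% from R2 and 73.0% from HS2 for 10 to 50 kb with itself. They were 68.0% and 78.6% for 50 to 200 kb, and 88.1% and 84.8% for 200 to 2000 kb. Both fragments lay between 200 kb and 2 Mb in 15.5%, 16.1% and 17.2% of pairs from R2, against 33.4%, 45.6% and 49.5% from HS2, and such pairs were mostly on one side, 96.7% ± 1.72 from R2 and 95.1% ± 1.91 from HS2. From R2, the largest class on average was 1 to 10 kb with 1 to 10 kb, with 20.4% ± 4.93 of pairs, against 10.3% ± 3.45 from HS2. That class was on one side in 87.5%, 93.1% and 86.3% of pairs from R2 and in 93.4%, 98.1% and 96.2% from HS2.

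Tested within band pairs, the ratio of same-side to opposite-side pairs differed in 0 of 10 (0%) in edgeR with adjustment, and 1 of 10 had an unadjusted p under 0.05, the class of 1 to 10 kb with itself (log2 -1.63, SE 0.76, adjusted p = 0.29). DESeq2 called 1 of 10, that same class and lower from R2, as did edgeR when each fragment pair was counted once per library. In that count the class was on one side in 65.3%, 69.2% and 64.9% of pairs from R2, against 83.6%, 92.0% and 91.2% from HS2 (log2 -1.95, SE 0.24, edgeR adjusted p = 5.1e-06). With fragments at least 10 kb apart, 0 of 10 were called. The class of 50 to 200 kb with itself then had 65.7%, 68.9% and 69.5% from R2, against 74.9%, 80.4% and 80.4% from HS2 (log2 -0.77, SE 0.19, edgeR unadjusted p = 0.0052, adjusted p = 0.052). At that separation the class of 1 to 10 kb with itself can hold no same-side pair, so its test was fixed in advance. It still counted among the 10 of the adjustment, and an adjustment over the other 9 was not made. The 0 calls therefore do not show that none of those 9 differs. With each of the 10 band pairs given equal weight, the same-side share was 70.0%, 71.9% and 69.8% from R2, against 70.2%, 70.5% and 71.8% from HS2, which overlap, with a difference of -0.30 ± 1.67 points. With fragments at least 10 kb apart and 9 band pairs weighted equally, it was 59.2%, 61.0% and 59.8% from R2, against 59.8%, 60.1% and 63.7% from HS2. With equal weights R2 was thus above HS2 in replicate 2 and below it in replicates 1 and 3, on either measure.

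**Figure D5:**
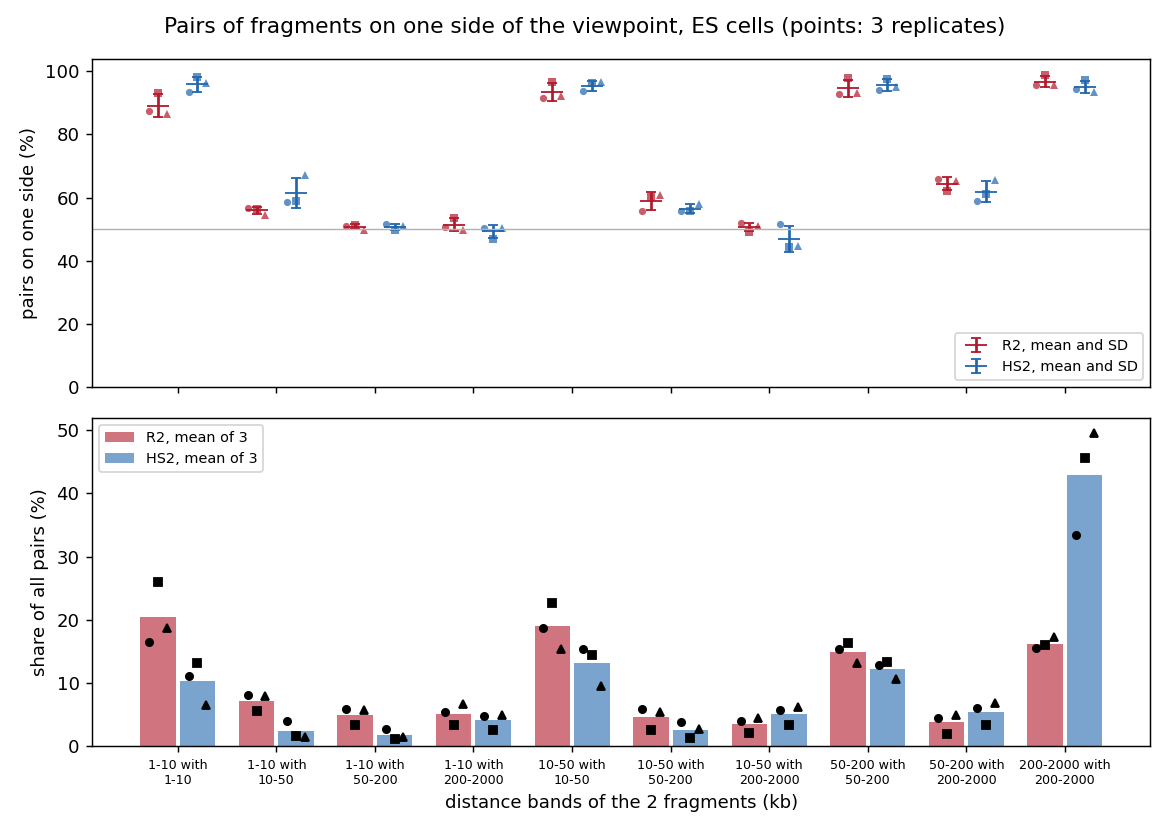
Top: percent of pairs with both fragments on one side of the viewpoint, for each pair of distance bands (kb), R2 (red) and HS2 (blue) in ES cells, with 3 replicates, mean and SD. Bottom: share of all pairs in each class (%), bars for the mean and points for the replicates; the class of 200 to 2000 kb with itself holds 16.3% of pairs from R2 and 42.8% from HS2.

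Set beside the erythroid libraries, the gap between the enhancers was wider in ES cells by most measures, several of which overlap in what they count. For the gene-side share the gap was wider in erythroid cells. R2 minus HS2 was 1.70 ± 2.52 points in ES cells and 6.71 ± 1.89 points in erythroid cells (exact permutation p = 0.1). From 200 kb to 2 Mb this difference was -4.39 ± 4.35 and -24.1 ± 5.98 points. The decay slopes in erythroid cells were -1.44, -1.42 and -1.38 from R2, against -1.33, -1.32 and -1.30 from HS2, so that R2 minus HS2 was -0.42 ± 0.10 in ES cells and -0.10 ± 0.02 in erythroid cells (SD, n = 3 each; exact two-sided permutation p = 0.1, which no 3 against 3 design can go below, and 0.111 adjusted over 10 measures). By side, R2 minus HS2 was -0.37 ± 0.13 in ES cells and -0.27 ± 0.08 in erythroid cells on the gene side, and -0.41 ± 0.07 in ES cells and 0.10 ± 0.04 in erythroid cells on the other side. From 20 kb to 1 Mb it was -0.42 ± 0.09 in ES cells and -0.006 ± 0.038 in erythroid cells; these split values were not tested. The share within 150 kb among pairs within 2 Mb differed by 29.1 ± 7.59 points in ES cells and 3.03 ± 1.98 points in erythroid cells (exact permutation p = 0.1). Pairs with neither fragment on the viewpoint chromosome made up 49.98% ± 7.16 from R2 and 51.02% ± 9.48 from HS2 in erythroid cells. The paired difference in that share was -14.4 ± 3.96 points in ES cells and -1.04 ± 2.82 points in erythroid cells (exact permutation p = 0.1). The difference in the same-side share was -4.36 points in both (exact permutation p = 1). With fragments at least 10 kb apart it was -8.76 ± 2.56 points in ES cells and -4.59 ± 1.29 points in erythroid cells (exact permutation p = 0.1). In the bands, R2 over HS2 itself differed between ES and erythroid cells in 13 of 20 bands (65%), 9 higher in ES cells (45%) and 4 lower (20%), by an edgeR interaction test. That test used table totals as library sizes, and how its calls depend on the scaling was not tested. The band of 100 to 200 kb on the gene side differed most among those beyond 50 kb: R2 and HS2 had 45.8 ± 6.01 and 32.9 ± 12.5 contacts per 1000 pairs in ES cells, and 5.73 ± 1.84 and 16.3 ± 5.56 in erythroid cells (interaction log2 2.04, SE 0.31, edgeR adjusted p = 0.00012).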

How the data were processed

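Tri-C contact pairs were counted from R2 and HS2 in 7 ES libraries (3 biological replicates) and 10 erythroid libraries (3 biological replicates). The deposited values are whole-number counts of fragment pairs per library, unnormalized as the files show. The submitters' processing notes name Trim Galore, Bowtie and the build mm9, without version or role. Duplicate removal is not stated by labels or headers, and a listed pair held 3.89 to 4.69 counts on average in ES replicates. The 2 CTCF viewpoint tables served only to place those viewpoints.

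Off-chromosome fragments entered as shares only, since their coordinates follow the viewpoint chromosome's fragment boundaries. Technical replicates were summed. Bands, 10 kb bins (at least 50 counts over 6 columns) and side ratios were tested with edgeR 4.0.16 (R 4.3.3; quasi-likelihood test, table totals as library sizes, replicate as block, Benjamini-Hochberg adjustment, threshold 0.05); the SE is the log2 difference divided by the square root of F. DESeq2 1.42.0, other scalings, filters and left-out replicates were alternatives. Single values had exact sign-flip or permutation tests, and counting intervals were not used. The block comes from the design: both viewpoints were captured from the same libraries. Deviations over the 20 bands correlated by -0.14, -0.03 and 0.57 in replicates 1, 2 and 3. Between replicates of different number they correlated by -0.61 to 0.37, so that these values do not show the pairing.

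On simulated counts the edgeR step called 51.7% of bands changed 2-fold and 95% changed 4-fold; for 10 kb bins (399 features) it called 0% and 60%, and for side ratios 36.7% and 100%. False calls were 4 of 35 (2-fold) and 1 of 58 (4-fold) for bands, 3 of 63 at 4-fold for bins, and 2 of 13 and 3 of 33 for side ratios. The simulated counts were independent, with a common dispersion and no differences between replicates, so these rates may not hold for the ES libraries. For bins each rate rests on 1 run. Named bins are up to 5 per direction and side, the largest differences past the threshold with one sign in every replicate. The measures, bands and lists were chosen with earlier results of these data known. Python 3.11.15, numpy 2.4.6, pandas 2.3.3 and matplotlib 3.10.9 did the rest.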

Additional observations from a re-analysis of the deposited data

Results flagged for a closer look

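The contrast of R2 with HS2 was not the same in ES and erythroid cells. An edgeR interaction test past the threshold marks 13 of 20 bands, with the log2 of R2 over HS2 in ES minus erythroid cells as follows. On the gene side the value was 1.60 from 1 to 2 kb, 2.39 from 2 to 5 kb, 0.86 from 20 to 50 kb, 1.33 from 50 to 100 kb and 2.04 from 100 to 200 kb, all higher in ES cells. It was -0.72 from 500 to 1000 kb on that side. On the other side it was 1.76 from 5 to 10 kb, 1.79 from 10 to 20 kb, 0.80 from 20 to 50 kb and 1.78 from 50 to 100 kb. Beyond 200 kb on the other side it was -1.36 from 200 to 500 kb, -1.38 from 500 to 1000 kb and -1.06 from 1000 to 2000 kb. Other scalings were not tested for this interaction. Without a replicate the calls numbered 10 to 14. The gene-side band from 20 to 50 kb lost its call in 5 of 8 alternatives, without ES replicate 2 or 3 or any erythroid replicate. The gene-side band from 500 to 1000 kb and the other-side band from 20 to 50 kb lost theirs without any one erythroid replicate, and the gene-side band from 2 to 5 kb without ES replicate 2 or 3.

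From 50 to 100 kb on the other side the contrast passed the threshold in both cell types with opposite signs, with a log2 of 1.01 in ES cells and -0.76 in erythroid cells. The ES call was lost relative to contacts within 2 Mb, with TMM factors and by DESeq2, and held per fragment. From 100 to 200 kb on the gene side it was 0.54 in ES cells, not past the threshold, and -1.51 in erythroid cells, past it. The share of pairs off the viewpoint chromosome, the strain, the source of the cells and the replicate makeup all differ between the cell types. Their part in these values was not tested.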

How the results depend on the processing

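For single measures, all 3 leave-one-out differences kept their sign, with ranges of -16.2 to -12.3 points for pairs off the chromosome, 16.1 to 20.6 for pairs within 2 Mb, -0.473 to -0.385 for the slope, 0.280 to 2.69 for the gene-side share and -5.16 to -3.33 for the same-side share. The gene-side difference turned to -1.38 with fragments within 5 kb left out and to -4.39 from 200 kb to 2 Mb.

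The numbers of called bands lay between 10 and 13 on leaving out a replicate (8 to 10 higher, 1 to 3 lower); lower calls numbered 5 relative to contacts within 2 Mb and 6 with TMM factors or DESeq2. Called 10 kb bins numbered 61 to 100 (15 to 36 higher, 46 to 64 lower) without a replicate, 56 (22 higher, 34 lower) with the first technical replicate alone and 61 (14 and 47) in 20 kb bins. Higher bins numbered 19 relative to contacts within 2 Mb, 55 with TMM factors and 23 per fragment; lower bins 46 with TMM factors and 54 with DESeq2, which split 52 to 54. The median bin log2 was -0.56, and -1.13, -0.07 and 0.02 under these 3 scalings (within 2 Mb, TMM, DESeq2). Gene-side calls lay between 0 and 6 without a replicate (0 without replicate 3; 0 to 4 higher, 0 to 3 lower). With no replicate block the pairing was ignored and 1 gene-side call was left, higher, with 0 lower; the block changed no band count. Same-side band pairs had 1 call, lower, with each pair counted once and with DESeq2. The ES minus erythroid difference in the same-side share was -0.801 to 1.03, turning to 1.03 without ES replicate 3 and to 0.389 without erythroid replicate 3.

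These values of single bands, none of them called, changed sign. Relative to contacts within 2 Mb, with TMM factors and with DESeq2, gene-side bands were -0.044, -0.292 and -0.313 (10 to 20 kb), -0.03, -0.276 and -0.297 (100 to 200 kb) and -0.201, -0.45 and -0.47 (200 to 500 kb). With TMM factors and DESeq2, other-side bands were -0.15 and -0.171 (2 to 5 kb) and -0.233 and -0.253 (20 to 50 kb). The other-side band from 100 to 200 kb was 0.155 with pairs counted once, 0.001 with first technical replicates and -0.141 to 0.152 without a replicate, and that from 200 to 500 kb was 0.075 with pairs counted once. The gene-side ratio from 1 to 2 kb was -0.067 to 0.294 without a replicate, and from 5 to 10 kb 0.121 with pairs counted once and up to 0.011 without replicate 3. The same-side ratio of 1 to 10 with 50 to 200 kb was 0.076 with first technical replicates, -0.051 to 0.03 without a replicate (0.013 without replicate 1) and 0.153 with fragments within 5 kb left out; that of 1 to 10 with 200 to 2000 kb was -0.081, -0.016 to 0.198 without a replicate and -0.468 with that exclusion; that of 10 to 50 with 50 to 200 kb was -0.256 with first technical replicates. The cause was not tested. The smallest ES total was 84849 counts, HS2 replicate 2.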

Other observations

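Beyond the fragments near HS2, ES replicates also differed at single bins. Bins of 10 kb were compared as shares of contacts within 2 Mb, and those with at least 0.8 contacts per 1000 contacts that differed at least 4-fold from both other replicates were counted. At R2, replicate 1 had 0 such bins higher and 0 lower, replicate 2 had 1 and 0, and replicate 3 had 1 and 0. At HS2, replicate 1 had 7 higher and 2 lower, replicate 2 had 3 and 3, and replicate 3 had 5 and 1. The source of these places was not tested.

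In erythroid cells the far contacts of the enhancers leaned to opposite sides. From 200 kb to 2 Mb, 30.4%, 36.1% and 36.3% of R2 contacts were on the gene side, against 58.5%, 63.1% and 53.5% of HS2 contacts. R2 was below HS2 in each of the 3 replicates. The paired difference was -4.39 ± 4.35 points in ES cells and -24.1 ± 5.98 points in erythroid cells (SD, n = 3 each, exact permutation p = 0.1, the smallest possible).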
